A study of Mus musculus with 4 samples.

Results

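The Rnf genes encode proteins with a RING finger, a zinc-binding fold, and 79 of them were examined for binding of the transcription factor Tfcp2l1 in mouse embryonic stem cells. The members are the protein-coding RefSeq genes on the autosomes (GRCm38) whose symbol is Rnf followed by a digit, without Rnf2, out of 20661 autosomal protein-coding genes. They were chosen by name, and the heavily bound members and those without peaks were then picked out by their peak counts, so those counts are a description. Wild-type cells grew in 2i, a serum-free culture with LIF (1000 units/mL), the GSK3 inhibitor CHIR99021 (3 µM) and the MEK inhibitor PD0325901 (1 µM), and received no other treatment. Chromatin was precipitated with an antibody made against mouse Tfcp2l1 (10 µg), and each of 2 repeats paired 1 ChIP library with 1 input library. No sample lacked Tfcp2l1 and no other culture condition was compared, so all values are enrichment over input. The labels do not say whether the repeats were separate cultures, and the spread between them may be technical.

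RING proteins bring a ubiquitin-loaded E2 enzyme to a substrate and so act as E3 ubiquitin ligases, which mark proteins for degradation or change their activity. RING-between-RING members instead carry ubiquitin on a cysteine of their own before passing it on. Some Rnf proteins sit in membranes of the cell surface, endosomes or endoplasmic reticulum (ER), and others act on chromatin and at DNA breaks. Tfcp2l1 is a factor of the CP2 family that helps to maintain self-renewal of naive mouse embryonic stem cells.

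The authors' peak lists hold 57614 regions for repeat 1 and 51610 for repeat 2, from 19353473 and 22555373 filtered ChIP tags. A peak was assigned to a gene when its summit lay inside the gene or within 10 kb of an end, and counted as shared when 1 bp or more of it was also covered in the second list. Fold enrichment is the authors' value for a peak, ChIP over the local input background, with list medians of 12.1 and 10.2. Where enrichment or tags are given as a pair, repeat 1 comes first.

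Most Rnf genes carried a Tfcp2l1 peak that recurred. A shared peak was found at 70 of 79 members (88.6%), against 66.9% of all autosomal protein-coding genes. Taken alone, repeat 1 placed a peak at 73 members (92.4%, against 73.7% of all genes) and repeat 2 at 70 (88.6%, against 70.5%). The median was 2 shared peaks per member and 1 per gene overall. Of the members, 24 had exactly 1 shared peak (30.4%, against 22.0%) and 12 had at least 5 (15.2%, against 11.6%). No test was made of these shares, because there is 1 condition and the members were chosen with earlier results known.

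**Figure D1:**
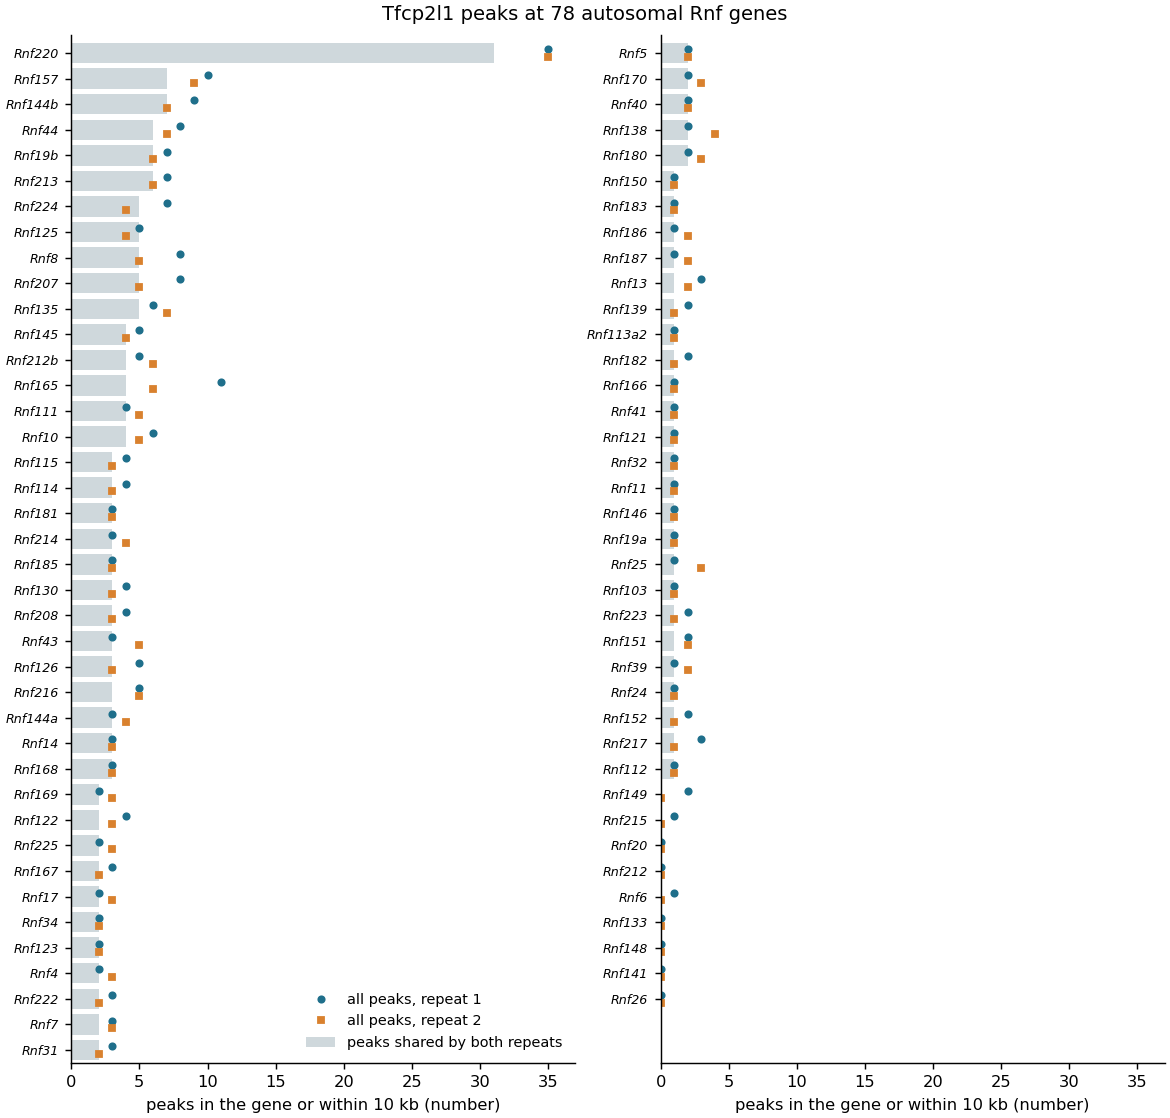
Number of Tfcp2l1 peaks in each of 78 Rnf genes or within 10 kb, as bars for shared peaks and as points for all peaks of repeat 1 (circles) and repeat 2 (squares). Rnf220 has 31 shared peaks, every other member has 7 or fewer, and 9 members have none.

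Long genes offer more room for peaks, and the share of bound members was above that of all genes at each gene length. Among genes of up to 10 kb, 17 of 21 members had a shared peak (81.0%) against 49.5% of all genes of that length. The shares were 88.0% and 71.1% for 10 to 30 kb, 90.9% and 78.8% for 30 to 100 kb, and 100% (11 of 11) and 86.1% above 100 kb. Leaving olfactory, vomeronasal and taste receptor names (Olfr, Vmn and Tas) out of all genes gave a share of 71.6%. Per 100 kb of gene and flanks the members together held 4.20 shared peaks and all genes 2.94. Without Rnf220 the members held 3.77.

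**Figure D2:**
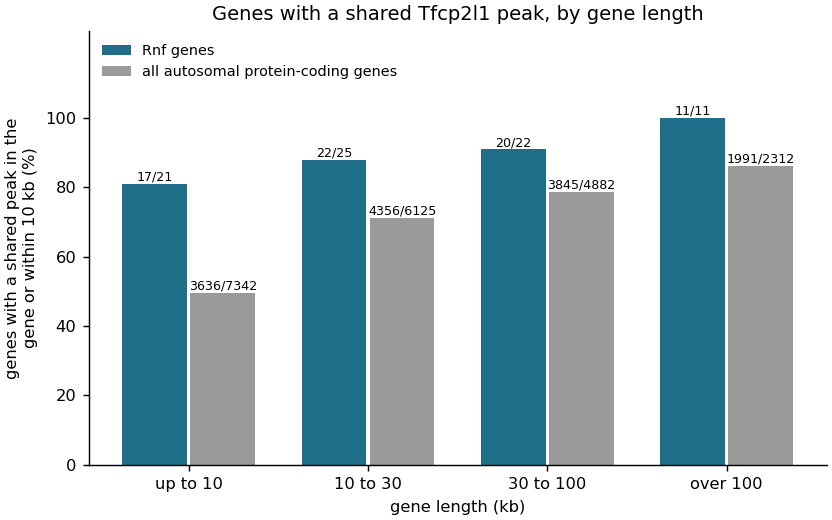
Percentage of genes with a shared Tfcp2l1 peak in the gene or within 10 kb, for 4 classes of gene length, with the number of genes above each bar. In each class the Rnf bar is the higher, from 81.0% against 49.5% in the shortest to 100% against 86.1% in the longest.

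Other families of the ubiquitin system gave a range of shares. A shared peak was found at 31 of 34 Ube2 genes (E2 enzymes, 91.2%), at 63 of 78 Fbx genes (F-box substrate receptors, 80.8%) and at 43 of 68 Trim genes (a further RING family, 63.2%). Per 100 kb the order was another, with 4.34 shared peaks for Trim, 4.20 for Rnf, 3.497 for Ube2 and 3.47 for Fbx genes. For Usp genes the share was 41 of 50 (82.0%), with 3.32 shared peaks per 100 kb. The Rnf share of bound genes lay below that of the Ube2 genes and above those of the Usp, Fbx and Trim genes. Median gene length was 15.9 kb for Trim, 24.8 kb for Fbx, 24.9 kb for Rnf, 33.1 kb for Ube2 and 48.4 kb for Usp genes. The shares were not adjusted for length, and these differences were not tested.

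Rnf220 was the most heavily bound member by number of shared peaks and by the sum of ChIP tags. Per 100 kb of gene and flanks it held 12.6 shared peaks and took place 7 among members, where Rnf224 was first with 22.4. Rnf220 encodes a ligase described to modify the corepressor Sin3b and to stabilise beta-catenin, the effector of Wnt signalling. The gene lies on chromosome 4 (117271463 to 117497052, 226 kb) and had 35 peaks in each repeat, of which 31 were shared, 30 of them inside the gene. These sum to 3905 and 3468 ChIP tags. Only 6 of the 20661 genes, Rnf220 among them, had 31 or more. The 254 genes of 200 to 250 kb had a median of 3 shared peaks, and none had more than Rnf220.

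Enrichment across Rnf220 was uneven. The highest peak, at 117342499 to 117343685, had 142-fold and 75.0-fold enrichment (461 and 337 tags). Next came 118-fold and 72.7-fold for 117429421 to 117430515. The highest value of repeat 2 was at 117360494 to 117361674 (114-fold, then 89.5-fold). A further strong peak at 117412804 to 117414015 showed 113-fold and 82.0-fold. The last of the tall ones, 117282787 to 117284092, showed 94.5-fold and 70.2-fold. These 5 stood well above the other shared peaks of the gene, whose highest was 60.9-fold and 41.5-fold. The median over the 31 was 14.03-fold and 12.95-fold, and the lowest values were 7.41-fold and 4.33-fold. In both lists, 6 of the 31 were in the top 10% by fold enrichment and 17 lay above the list median. Neighbouring summits were a median of 7.36 kb apart, and the longest stretch without a shared summit was 36.03 kb.

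**Figure D3:**
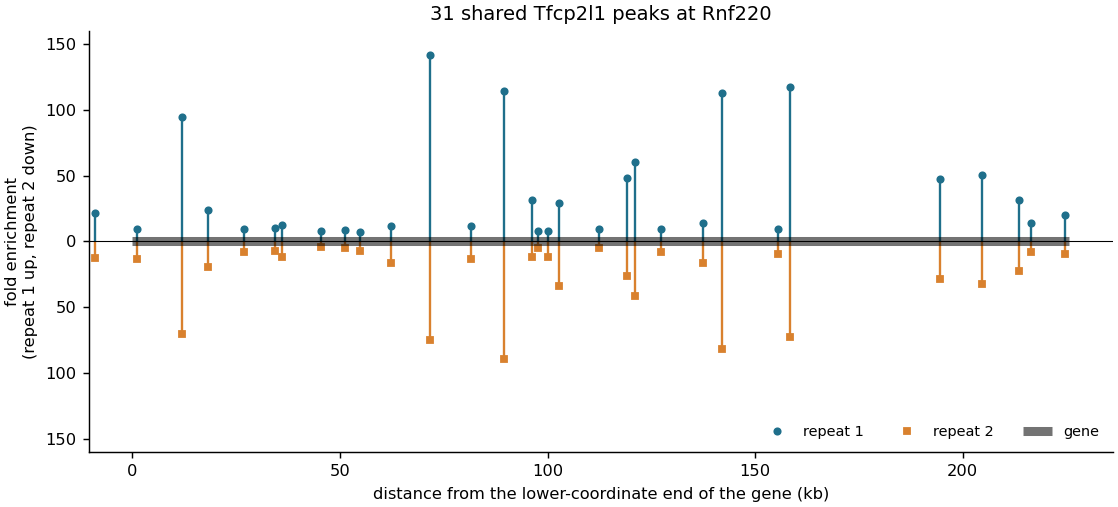
Shared Tfcp2l1 peaks along Rnf220, by distance from the lower-coordinate end of the gene in kb, with fold enrichment in repeat 1 drawn upward and in repeat 2 downward. The grey bar is the gene. Both repeats show the same 5 tall peaks, reaching 142-fold (repeat 1) and 89.5-fold (repeat 2).

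The members next in number of shared peaks had from 5 to 7. Rnf157, a ligase best known from neurons, had 7 on chromosome 11 (116336345 to 116413391). The strongest, at 116411232 to 116412488, lay 1.18 kb inside the gene from a start site and had 79.7-fold and 51.4-fold enrichment (220 and 222 tags). The other 6 reached at most 37.9-fold and 29.4-fold. Rnf144b, a RING-between-RING ligase known as a p53 target, also had 7, all inside the gene on chromosome 13 (47122720 to 47247991). The peak at 47124098 to 47126193, 2.02 kb from its upstream end, had 79.7-fold and 50.3-fold enrichment (405 and 372 tags), and the other 6 stayed at or below 23.4-fold in repeat 1. Both genes thus had 1 dominant peak near a start and weaker ones elsewhere.

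Rnf44, a little-studied ligase, had 6 shared peaks on chromosome 13 (54679399 to 54694076). The peaks inside the gene included one of 62.6-fold and 36.5-fold enrichment, and the second was weaker in both repeats. The other 4 lay outside it, the strongest 3.31 kb beyond its end (52.4-fold and 56.5-fold, 254 and 247 tags). The repeats differed at the outermost of these, 8.65 kb beyond the end, with 42.5-fold and 10.6-fold.

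Rnf19b, a RING-between-RING ligase described in natural killer cells and macrophages, had 6 shared peaks on chromosome 4. The 2 before its start included one with 37.2-fold and 14.1-fold enrichment, 9.02 kb away. The strongest by rank over both lists lay 9.89 kb into the gene, with 24.2-fold and 23.6-fold. Rnf213, the giant ATPase and ligase linked to moyamoya disease, had 6 on chromosome 11 (119389950 to 119487418). All 6 summits lay between 7.22 kb before the start and 16.3 kb after it, although the gene spans 97.5 kb. Their enrichment was moderate, from 8.07-fold to 16.4-fold and from 8.24-fold to 14.5-fold.

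**Figure D4:**
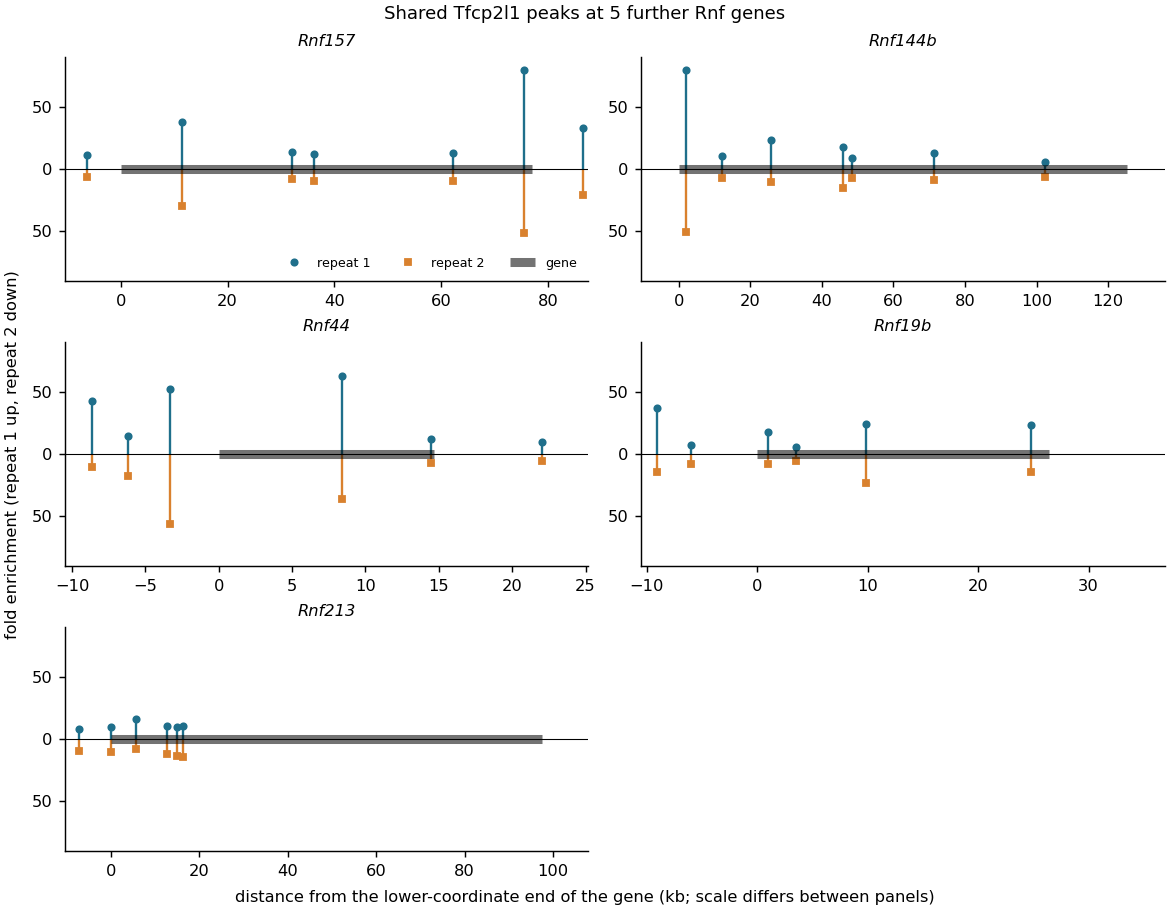
Shared Tfcp2l1 peaks at Rnf157, Rnf144b, Rnf44, Rnf19b and Rnf213, by distance in kb from the lower-coordinate end of each gene, with fold enrichment in repeat 1 drawn upward and in repeat 2 downward. Rnf157 and Rnf144b each show 1 peak of 79.7-fold in repeat 1, and the 6 peaks of Rnf213 crowd at its start.

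Members with 5 shared peaks were Rnf224, Rnf125, Rnf8, Rnf207 and Rnf135. Rnf8, the ligase that begins ubiquitin signalling at DNA double-strand breaks, had all 5 inside the gene on chromosome 17 (29614789 to 29641664), the strongest at 48.8-fold and 34.6-fold (143 and 172 tags). Rnf125, a ligase that restrains the RNA sensor RIG-I, had 5 in repeat 1 and 4 in repeat 2. The difference arose because the peaks of 45.4-fold and 76.7-fold just outside the gene in repeat 1 overlapped the same peak of repeat 2 (43.6-fold). Rnf224, a little-studied gene of 2.31 kb on chromosome 2, owed its strongest peak (91.9-fold and 66.6-fold, 320 and 323 tags) to a site 5.64 kb beyond its end and 0.065 kb from Slc34a3. It also shared 2 peaks with the window of its neighbour Rnf208. Rnf207 and Rnf135 have summits within other genes in their windows, Icmt and Rpl22 for the former and Adap2 and Rhot1 for the latter. Just below this number, 5 members had 4 shared peaks each, namely Rnf145, Rnf212b, Rnf165, Rnf111 and Rnf10.

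A few members had 1 very strong site, with weaker ones or none besides. Rnf145, a ligase of the ER tied to cholesterol metabolism, had a peak 6.64 kb beyond its end on chromosome 11 (44571529 to 44572829) with 119-fold and 79.3-fold enrichment (430 and 397 tags). Its peaks inside the gene reached 35.3-fold and 14.5-fold. Rnf150, a membrane ligase of the PA-TM-RING class on chromosome 8 (82863266 to 83091271), had 1 peak in each repeat over 228 kb, at 98.5-fold and 81.2-fold (485 and 445 tags). Rnf150 and Rnf220 are nearly equal in length and had 1 and 31 shared peaks. Rnf183, a ligase of the ER with high expression in kidney, also had 1 peak in each repeat, at 83.1-fold and 76.1-fold (313 and 304 tags).

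Rnf115 and Rnf169 completed the strongest sites together with Rnf212b. Rnf115, a ligase found in breast cancer and vesicle traffic, had its strongest peak 61.2 kb into the gene (103-fold and 43.95-fold, 302 and 181 tags). Rnf169, which binds ubiquitinated histone H2A at DNA breaks, had a peak 0.209 kb outside the gene (103-fold and 42.7-fold, 308 and 357 tags). In both genes fold enrichment was lower in repeat 2 by more than the median ratio between the lists at members, 1.38. The tags at Rnf169 were higher in repeat 2. In all, 21 members (26.6%) had a strongest shared peak in the top 10% of both lists, against 16.0% of all genes.

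**Figure D5:**
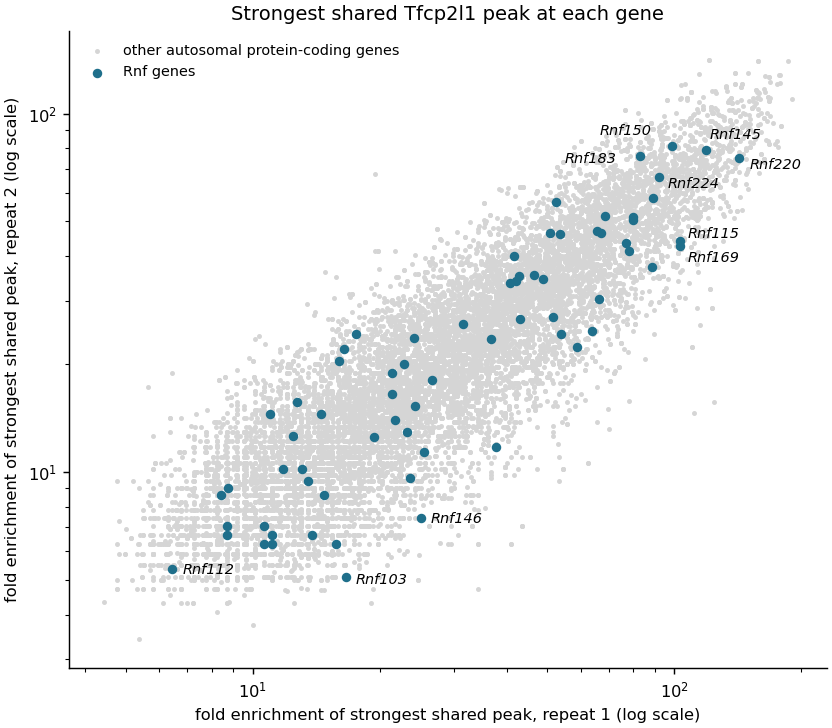
Fold enrichment of the strongest shared Tfcp2l1 peak of each gene in repeat 1 and repeat 2, both on log scales, for the same 78 Rnf genes where they have one (blue) over other autosomal protein-coding genes (grey). Along the axis of repeat 1 the Rnf genes run from Rnf112 (6.42-fold) to Rnf220 (142-fold), and along that of repeat 2 from Rnf103 (5.10-fold) to Rnf150 (81.2-fold), within the spread of the other genes.

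Shared peaks at members had summits close together in the repeats, which their overlap by definition favours. The members' windows held 207 distinct shared peaks, whose summits in the repeats lay a median of 26 bp apart, 90.3% of them within 100 bp. Spearman's rho of fold enrichment was 0.819 over the 201 peaks that matched one-to-one, and 0.813 over all 41701 such peaks. These values describe regions from 1 pair of ChIP libraries, which are not replicates. Members that went apart included Rnf103 (16.7-fold and 5.10-fold) and Rnf146, a ligase that recognises poly-ADP-ribosylated axin (25.1-fold and 7.46-fold). Rnf165 had 11 peaks in repeat 1 and 6 in repeat 2, with 4 shared. Peaks at members found in 1 repeat only were weak, 59 in repeat 1 with a median of 7.73-fold and 36 in repeat 2 with 6.67-fold.

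Some of these sites belong as much to neighbouring genes. Of the 207 peaks, 135 (65.2%) had their summit inside a member. Of the other 72, 27 were inside another protein-coding gene, 14 were nearer to another gene and 31 had the member as the nearest gene. Counting only peaks inside a gene, or near it with no other gene nearer, 60 members kept a shared peak (75.9%, against 57.4% of all genes). A shared peak inside the gene was found at 50 members (63.3%, against 46.5%). With a window of 1 kb in place of 10 kb there were 59 members (74.7%, against 53.5%), and with 50 kb there were 74 (93.7%, against 83.3%). At the edge of the window, Rnf182 was counted through a peak 9.78 kb away (22.8-fold and 20.01-fold). Just beyond it, the nearest shared peak of Rnf26 lay 14.6 kb away (6.93-fold and 5.89-fold).

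Start sites were known for 62 members through RefSeq promoter sequences (GRCm38.p6), which run from 250 bases before to 50 bases after a start. Of these, 17 (27.4%) had a shared summit within 250 bp of a start site, against 15.2% of the 16456 genes with such an entry. Within 1 kb there were 28 (45.2%, against 28.2%) and within 5 kb 37 (59.7%, against 42.8%). The strongest summit within a promoter sequence was that of Rnf167, a lysosomal and endosomal ligase, 145 bp before the start (65.7-fold and 47.1-fold), where the summit also lay inside Slc25a11. Promoters of the most heavily bound members that hold a shared summit are printed to show the DNA under these peaks, 5′ to 3′ on the strand of the gene. They are those of Rnf44 (chr13:54687759-54688058, minus strand, summit 36 bp after the start, 62.6-fold and 36.5-fold), Rnf144b (chr13:47193753-47194052, plus, 45 bp after, 13.1-fold and 8.75-fold), Rnf213 (chr11:119389849-119390148, plus, 92 bp before, 10.1-fold and 10.6-fold) and Rnf224 (chr2:25236738-25237037, minus, 113 bp before, 10.85-fold and 6.28-fold). Capitals mark 4-letter elements CNAG or CNGG, on either strand, repeated after a gap of 6 bases, which is the loose form of the CP2 recognition sequence. Matches that overlap run together.
Rnf44: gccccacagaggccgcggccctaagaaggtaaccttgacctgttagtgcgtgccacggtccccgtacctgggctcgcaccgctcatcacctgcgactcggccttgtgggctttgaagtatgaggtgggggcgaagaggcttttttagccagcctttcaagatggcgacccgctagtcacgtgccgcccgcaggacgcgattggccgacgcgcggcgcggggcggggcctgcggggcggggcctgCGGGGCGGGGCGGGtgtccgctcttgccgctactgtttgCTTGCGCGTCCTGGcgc
Rnf144b: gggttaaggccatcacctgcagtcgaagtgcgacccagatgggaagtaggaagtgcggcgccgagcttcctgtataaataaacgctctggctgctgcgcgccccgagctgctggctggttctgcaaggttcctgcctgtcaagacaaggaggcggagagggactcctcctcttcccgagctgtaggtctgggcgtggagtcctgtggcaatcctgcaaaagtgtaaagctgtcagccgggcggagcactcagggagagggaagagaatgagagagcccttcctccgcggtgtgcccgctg
Rnf213: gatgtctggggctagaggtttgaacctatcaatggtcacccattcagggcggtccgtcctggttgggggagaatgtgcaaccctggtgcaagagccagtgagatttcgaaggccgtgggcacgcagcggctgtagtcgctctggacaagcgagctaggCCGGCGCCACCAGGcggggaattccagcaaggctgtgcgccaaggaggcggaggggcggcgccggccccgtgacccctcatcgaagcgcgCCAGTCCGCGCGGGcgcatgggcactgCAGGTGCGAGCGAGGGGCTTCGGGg
Rnf224: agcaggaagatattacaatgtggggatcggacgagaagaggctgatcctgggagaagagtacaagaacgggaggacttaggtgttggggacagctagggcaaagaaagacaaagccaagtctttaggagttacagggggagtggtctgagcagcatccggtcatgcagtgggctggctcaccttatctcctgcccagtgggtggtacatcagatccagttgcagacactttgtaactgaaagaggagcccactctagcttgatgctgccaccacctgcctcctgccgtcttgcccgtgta

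The loose form occurred in 2 places at Rnf44, in 4 at Rnf213 and in none at Rnf144b or Rnf224. It was present in 59.9% of the 20084 promoters of autosomal protein-coding genes, and in 61.3% of the members' 80 promoters. Among promoters that hold a shared summit, it was present in 5 of the members' 9 (55.6%) and in 82.1% of the 1774 of autosomal protein-coding genes. The strict form, CCAG repeated after a gap of 6 bases on either strand, was present in 3.52% of these promoters and in 2 of the members' 80 (2.50%), and each strict match is also a loose one. With a shared summit it was in 0 of the members' 9 promoters, against 6.76% of the 1774. The 2 belong to Rnf183 and Rnf212b. Only 2 bases of that Rnf183 promoter (chr4:62435201-62435500) fell in its peak of repeat 1, while the matched peak of repeat 2 reached to 62435259. A second Rnf183 promoter (chr4:62434591-62434890), without the strict form, lay wholly inside the peak, with the summit 69 bp after its start. The Rnf212b promoter (chr14:54813900-54814199, plus strand) lay wholly inside a peak of 89.2-fold and 58.1-fold enrichment (371 and 244 tags), with the summit 87 bp after the start. Rnf212b is a meiotic gene related to Rnf212, and it is printed, chosen after its values were seen, with the strict match in capitals, here on the opposite strand.
Rnf212b: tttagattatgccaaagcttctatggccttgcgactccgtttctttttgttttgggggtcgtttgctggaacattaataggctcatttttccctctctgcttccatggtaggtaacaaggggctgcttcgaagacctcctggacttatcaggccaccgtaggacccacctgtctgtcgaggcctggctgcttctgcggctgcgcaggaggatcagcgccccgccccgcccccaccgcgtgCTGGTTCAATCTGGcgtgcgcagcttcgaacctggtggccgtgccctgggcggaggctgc

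Shared peaks were absent from 9 members. No peak of either repeat was found at Rnf20, Rnf26, Rnf133, Rnf141, Rnf148 and Rnf212, which is 7.59% of members against 23.9% of all genes. Rnf20 on chromosome 4 (49632005 to 49656887) encodes the ligase that places ubiquitin on histone H2B, and its nearest peak in either repeat was 110 kb away. Its partner in that complex, Rnf40, had 2 shared peaks, the stronger at 13.5-fold and 9.42-fold. Rnf133 and Rnf148 are short testis genes whose windows on chromosome 6 overlap, so they count nearly the same stretch of DNA. Their nearest shared peak was the same, 128 kb and 133 kb away, and repeat 1 alone had one at 24.6 kb from Rnf133 and 19.8 kb from Rnf148 (7.73-fold). Rnf212, which acts in meiotic crossing-over, had its nearest shared peak at 51.4 kb and one of repeat 1 alone at 44.6 kb, while its relative Rnf212b had 4 shared peaks. Rnf141 had its nearest shared peak at 22.9 kb and one of repeat 1 alone at 20.8 kb. Whether tags could be mapped at these genes was not tested.

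Rnf6, Rnf149 and Rnf215 had peaks but no shared one, which is 3.80% of members against 9.13% of all genes. Peaks of either repeat count in both shares, and those of these members all came from repeat 1. Rnf149 had peaks of 9.53-fold (36 tags) and 7.73-fold (21 tags) inside the gene. Rnf6 had 1 of 5.80-fold (35 tags) inside, and Rnf215 had 1 of 7.63-fold (25 tags) at 9.36 kb. All 4 lay below the list median of 12.1, so they were among the weaker peaks of that list.

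By role, the RING-between-RING ligases were all bound. All 8 had a shared peak (100%, against 66.9% of all genes and 88.6% of all members), led by Rnf144b and Rnf19b. Their median was 3 shared peaks, against 1 over all genes and 2 over all members. Several of these genes are long, with Rnf144b, Rnf216, Rnf144a and Rnf217 each above 100 kb. Among genes above 100 kb the median was 3 for all genes and 3 for members. Rnf31, the catalytic subunit of the complex that builds linear ubiquitin chains, had a peak 0.179 kb outside the gene at 21.5-fold and 16.5-fold. The weakest of the group was Rnf217, at 8.70-fold and 6.67-fold. All 4 ligases with the zinc fingers typical of the Rnf114 group also had a shared peak (100%, against the same 66.9% and 88.6%). They were led by Rnf125 and Rnf114. Rnf138 belongs to this group and to the next. The strongest peak of Rnf114 (66.9-fold and 46.4-fold) lay 9.57 kb before it, inside Spata2.

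Ligases of chromatin and DNA damage had a shared peak at 8 of 9 members (88.9%, against 66.9% of all genes and 88.6% of all members). Besides Rnf169 and Rnf8, they included Rnf111, which promotes Nodal and TGF-beta signalling and binds SUMO chains, with 53.6-fold and 46.2-fold inside the gene. Rnf4, which also ubiquitinates SUMO-modified proteins, had 30.8-fold and 25.9-fold at 133 bp from a start site. Its peak of 58.7-fold and 22.3-fold lay 8.92 kb before the gene, inside Cfap99. Rnf168, which extends the Rnf8 signal, had weaker sites, the strongest by rank at 8.43-fold and 8.63-fold. Rnf20 was the member without one.

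Of 15 ligases of the ER and other inner membranes, 14 had a shared peak. That is 93.3%, against 66.9% of all genes and 88.6% of all members, with Rnf26 the exception. Rnf145, Rnf183 and Rnf122 led, the last with 68.6-fold and 51.9-fold inside the gene. The median number in this group was 1, the same as over all genes and below the 2 over all members. Of the PA-TM-RING membrane ligases on autosomes, 5 of 9 had a shared peak (55.6%, below the 66.9% of all genes), and Rnf133, Rnf148, Rnf149 and Rnf215 did not. Rnf43, which removes Frizzled receptors from the cell surface and so damps Wnt signalling, had 3, all inside the gene, at 25.5-fold and 11.4-fold, 14.5-fold and 14.5-fold, and 12.6-fold and 11.0-fold. The roles were not compared by test.

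Partners of these ligases were counted in the same way, each share to be read against 66.9%. Among Wnt receptor turnover genes, 12 of 15 had a shared peak. The strongest was at Znrf3, the partner of Rnf43, with 6 shared peaks and 47.4-fold and 36.1-fold. In DNA damage ubiquitin signalling 9 of 11 had one, led by Ube2b, an E2 enzyme that works with Rnf20 and Rnf40, at 163-fold and 96.9-fold. Wac, a further partner of Rnf20, had no peak. In the linear ubiquitin group 4 of 5 had one, led by Tnip1 (118-fold and 89.1-fold), with Cyld without a peak. Of 16 E1 and E2 enzymes 15 had one, led by Ube2d2a (131-fold and 95.8-fold), and of 14 other RING ligases 11, led by Siah1a (115-fold and 55.9-fold).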

How the data were processed

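Peaks came from 2 lists, 1 per repeat, not pooled. Per the file headers, the authors called them with MACS 1.4.1, ChIP against the input of the same repeat (p-value threshold 1e-05, tag size 35 bp, at most 2 duplicate tags per position). CASAVA 1.8.2 is listed too, per the submitters' processing notes, and no aligner is named (not given in the sources used here). Deposited tags are raw counts of ChIP tags in a peak. The deposited fold enrichment is a ratio to the local background. The deposited score is 10 times the -log10 p-value, used only in an alternative, and the deposited FDR is in percent (highest 0.12%).

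The notes name mm9, but the positions were read as GRCm38: chromosome Y peaks reach 90.8 Mb, and 7.95% of shared summits lay within 500 bp of a GRCm38 start site, against 1.33% with the starts moved by 100 kb. Gene ends came from RefSeq (GRCm38.p6). A summit is start + summit - 1. A gene's strongest peak has the best mean rank of fold enrichment over both lists. Peak counting was checked on simulated data. Python 3.11.15, pandas 2.3.3 and scipy 1.17.1 were used. No test was run, since there is 1 condition, and correlations are across regions.

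The members and lists were chosen with earlier results of these data known. Genes were named by rule: the 10 members with most shared peaks, the 10 with the best mean rank, all without a shared peak, and the strongest and unbound genes of each list. A member among the first 10 is not reported here by name or drawn on its own, but is part of the totals. Others named were chosen after their values were seen. The planned gene H2afx was matched as H2ax. Alternatives were other windows, definitions of a shared peak, thresholds, each repeat alone and other rankings.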

Additional observations from a re-analysis of the deposited data

How the results depend on the processing

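The number of members with a shared peak ran from 54 (fold enrichment 10 or more in each repeat, against 52.1% of all genes) to 74 (50 kb window, against 83.3%) over the settings tried. Counting peaks of repeat 1 alone gave 73 members (against 73.7% of all genes), and those of repeat 2 alone gave 70 (against 70.5%). The median per member was 1 with a 1 kb window, with gene ends only, with fold enrichment of at least 10 and with a score of at least 100, and over all genes it was also 1 there, so the difference between 2 and 1 was not seen in these settings. It was 5 with 50 kb (all genes 4), 2 with repeat 1 alone (all genes 2) and 3 with repeat 2 alone (all genes 1). Pooled shared peaks per 100 kb were 5.03 for gene ends only (all genes 4.15) and 3.82 for summits within 100 bp (all genes 2.6). They were 2.21 for fold enrichment of at least 10 (all genes 1.63) and 2.96 for a score of at least 100 (all genes 2). Leaving out Rnf220 gave 3.77 (added after seeing the data). Repeat 1 alone gave 5.41 (all genes 3.83) and repeat 2 alone 4.93 (all genes 3.42). Members without a peak of either repeat numbered 14 with 1 kb (35.8% of all genes), 14 with fold enrichment of at least 10 (35.7%), 1 with 50 kb (10.8%), 6 with repeat 1 alone (26.3%) and 9 with repeat 2 alone (29.5%). Of the 10 members with most shared peaks, 5 stayed when ranked per 100 kb and 6 when ranked by the sum of ChIP tags. Of the 10 with the strongest peaks, 6 stayed when ranked by tags. Wider windows and lower thresholds take in more peaks by construction. No paired analysis was possible because inputs have no values of their own in the peak lists. The effect of depth was not tested, and a gene without a peak was below the authors' threshold, which does not show absence of binding.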
